A study of Coptotermes formosanus x Coptotermes gestroi and Coptotermes formosanus and Coptotermes gestroi with 67 samples.

Results

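The genes described here were counted in the termite Coptotermes formosanus and next to never in Coptotermes gestroi. They numbered 111 of the 15950 genes of the table. Membership was set by measured levels, with NA cells read as 0 and levels taken as CPM, the usual scaling of counts by a profile's total. A member had a mean of at least 3 CPM over the 6 C. formosanus profiles and at most 6 counts summed over the 6 C. gestroi profiles. Its mean (CPM + 1) also differed by less than 2-fold between the hybrids called Hybrid F and Hybrid G. Of 10129 genes that met the first criterion, 123 met the second and 111 the third. The C. formosanus level, the C. gestroi counts and the nearness of both hybrids to each other are therefore descriptions of how the list was made, and no test of them is given.

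The study followed the molting cycle of termite workers by RNA-seq in 4 crosses, both species and both hybrids, at 3 stages (inter-molt, pre-molt and post-molt). Heads were profiled apart from bodies, which comprised thorax and abdomen with no gut. The labels do not say which species was the mother of either hybrid, nor the colony or age of the workers. All columns of a group held identical values, so each of the 24 combinations of cross, tissue and stage is 1 profile, and the p-values given below measure how a difference recurred across crosses or stages, not across workers or colonies.

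Termites molt by laying down a new cuticle under the old one, which is then shed. Workers pass through inter-molt, pre-molt and post-molt as the steroid hormone ecdysone rises and falls, and genes of cuticle building, cuticle breakdown and muscle are known to change with it. A hybrid worker carries 1 gene set from each species. A gene present in the set of 1 species alone is there in 1 copy in place of a pair. The files pair no identifier with a gene name, so the genes below carry only their identifiers, no role is given for any of them, and the head and body labels could not be checked against tissue markers.

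Total counts per profile ran from 9861833 to 38338701. A floor of 3 counts stood at between 0.0782 and 0.304 CPM. In bulk tissue a lower level can come from fewer cells of a type or from less RNA per cell, and these cannot be told apart. The table held NA in 8.22% of its cells, and the sources do not say what NA means.

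The C. gestroi columns held NA far more often than 0 for these genes. Of the 666 cells that 111 genes and 6 profiles make, 519 were NA in C. gestroi, 70 were listed at 0 and 77 held counts. In C. formosanus 8 of 666 cells were NA, 23 were listed at 0 and 635 held counts. Both hybrids lay near C. formosanus, with 36 NA cells and 591 counted cells in Hybrid F and 41 NA cells and 587 counted cells in Hybrid G. The plot of cell states by profile shows the same split in every profile.

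**Figure D1:**
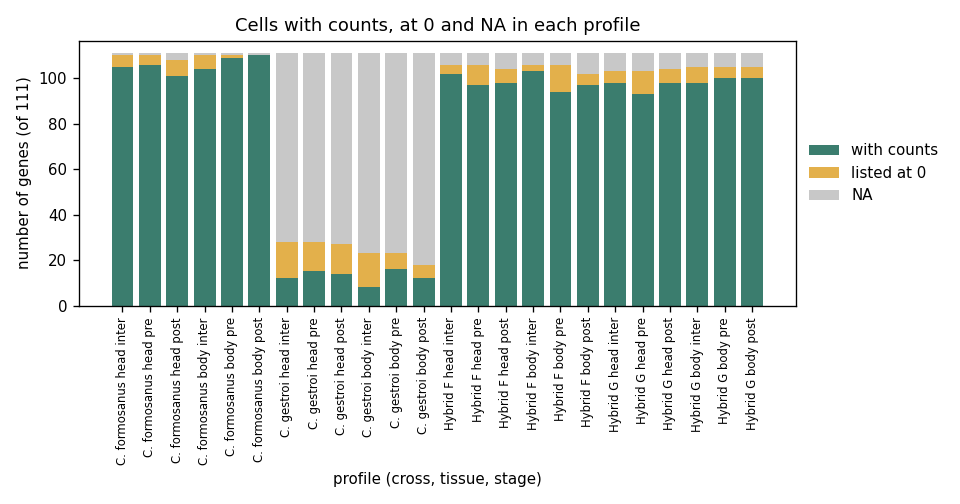
Number of the 111 genes with counts, listed at 0 or NA (y axis) in each of the 24 profiles (x axis: cross, tissue and stage). The C. gestroi bars are mostly NA, with 83 to 93 genes each, while NA covers 1 to 3 genes in the C. formosanus profiles, 5 to 9 in those of Hybrid F and 6 to 8 in those of Hybrid G.

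Of the 111 genes, 67 were NA in all 6 C. gestroi profiles, 38 in some of them and 6 in none. A total of 71 had no count at all in C. gestroi, and the other 40 shared 140.2 counts. Over all genes, 839 were NA in all 6 C. gestroi profiles and 637 in all 6 C. formosanus profiles. Within every cross and tissue the NA state of each member was the same at inter-molt and pre-molt, in 111 of 111 genes. Between inter-molt and post-molt it differed in up to 17 members, the number in C. gestroi bodies. In the hybrids 18 members had an NA cell in at least 1 profile, 11 of them in both hybrids. BGI_novel_G003058 and Cfor_03982 were NA in all 6 Hybrid G profiles.

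The genes near the limits of the rule were as follows. BGI_novel_G002916 lay just inside the level limit with a mean of 3.01 CPM in C. formosanus, and BGI_novel_G001313 just outside with 2.96 CPM. BGI_novel_G000196 lay just inside the C. gestroi limit with 6 counts, and BGI_novel_G003562 just outside with 6.05 counts. BGI_novel_G001914 lay just inside the limit on the hybrids, which were 1.86-fold apart, and BGI_novel_G003760 just outside with 2.02-fold. The limit on the hybrids kept out 12 genes that met both parental criteria, 7 of them higher in Hybrid F and 5 higher in Hybrid G. BGI_novel_G003859 is an example, with means of 4.39 CPM in C. formosanus, 0 CPM in Hybrid F and 4.77 CPM in Hybrid G. Another is BGI_novel_G001347, with 5.74 CPM in C. formosanus, 8.99 CPM in Hybrid F and 0.93 CPM in Hybrid G.

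Most members belonged to 1 class of identifiers. Of the 111, 100 (90.1%) had identifiers beginning BGI_novel and 11 (9.91%) identifiers beginning Cfor. BGI_novel genes made up 24.8% of the table and 20.5% of the 10129 genes at or above 3 CPM in C. formosanus. With the parents swapped in the rule, 39 genes were counted in C. gestroi only, and 82.1% of these were BGI_novel genes. Members had a median length of 2707 bases (range 546 to 11704), against 3498 bases over the 10129 genes. Some members carried consecutive identifier numbers, with 8 such runs holding 17 members. The longest run was BGI_novel_G000125 to BGI_novel_G000127, at means of 3.81, 8.54 and 6.93 CPM in C. formosanus.

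Member values were often not whole numbers. The deposited values are estimated counts, which can hold decimals where reads that fit several genes are divided among them; whether that is so here was not tested. Among member values above 0, 82.1% were not whole, against 30.2% in the 10006 genes at or above 3 CPM in C. formosanus with more than 6 C. gestroi counts. Within that comparison set the BGI_novel genes stood at 73.9%. In 13 members every C. formosanus value was whole. Levels of the others are uncertain where a near-identical copy exists elsewhere. Decimals were also present in the C. formosanus inter-molt body, a group of 1 column, in 26.2% of all values above 0.

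Member levels in C. formosanus covered a wide range. Mean levels ran from 3.01 to 2920.6 CPM with a median of 7.14 CPM. The highest member per profile total was BGI_novel_G003060, a gene of 9539 bases. Its 6 C. formosanus profiles ran from 1593.1 to 4726.1 CPM, with a mean of 2920.6 ± 1188.7 CPM (SD, n = 6 profiles). Hybrid F profiles ran from 1500.2 to 3470.8 CPM and Hybrid G profiles from 1550.3 to 2609.6 CPM, while all 6 C. gestroi cells were NA. Its hybrid profiles overlapped those of C. formosanus, and the hybrid means were 96.0% (Hybrid F) and 74.8% (Hybrid G) of the C. formosanus mean. It passed no stage or tissue test. Per length the order was different, with BGI_novel_G001611 highest at 1153.5 CPM per kilobase, then BGI_novel_G003060 at 306.2, BGI_novel_G001612 at 259.1, Cfor_11568 at 65.4 and Cfor_00386 at 43.6. The median member stood at 2.86 CPM per kilobase.

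**Figure D2:**
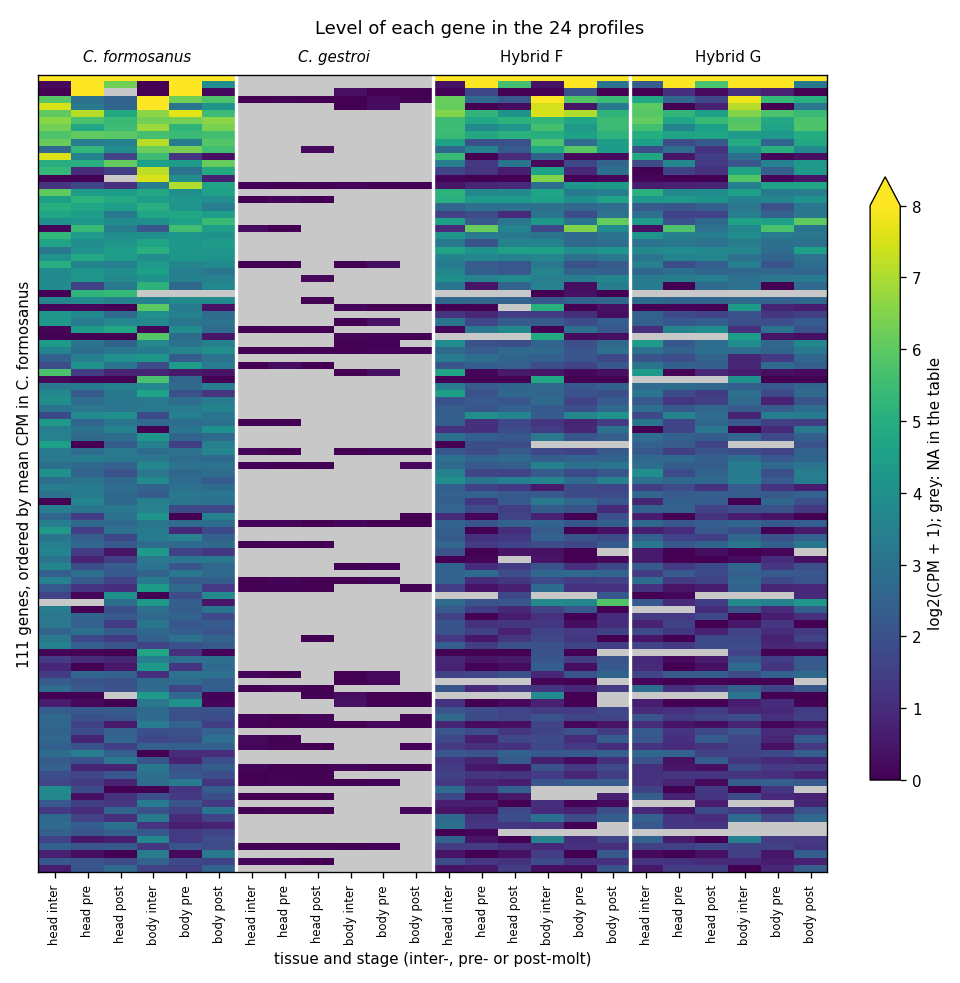
Level of the 111 genes (rows, ordered by mean CPM in C. formosanus) in the 24 profiles (columns, by cross, tissue and stage), as log2(CPM + 1) with the colour scale capped at 8 and NA cells in grey. Members are grey or at 0 to the eye in C. gestroi and are present, mostly at a lower level than in C. formosanus, in both hybrids.

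Both hybrids held these genes at a level below that of C. formosanus. The median member stood at 44.4% of its C. formosanus mean in Hybrid F, with the middle 50% of members between 31.9% and 58.6%. In Hybrid G it stood at 39.9%, with the middle 50% between 28.8% and 58.5%. On the log2 scale of mean (CPM + 1), the median ratio to C. formosanus was -0.98 in Hybrid F and -1.05 in Hybrid G. Its size depends on the pseudocount: with 5 CPM in place of 1 these medians were -0.57 and -0.61. Over the 10129 genes at or above 3 CPM in C. formosanus the medians were -0.06 and -0.15. Since the rule asks for a minimum in C. formosanus, the level there was used in choosing the members, and the ratio is given with no test.

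The ratio was also taken with the choice and the measurement in different tissues. Heads and bodies came from the same crosses, so this is a description and no independent check. When genes were chosen by the same rule on the 3 head profiles of each cross, with at most 3 C. gestroi counts, 99 genes passed, and their median log2 ratio in the body profiles was -0.98 in Hybrid F and -0.96 in Hybrid G. When they were chosen likewise on the body profiles, 148 genes passed, and their median in the head profiles was -0.66 and -0.68. Over the 6 pairs of matched tissue and stage, the median of the ratio taken within a pair ran from -1.06 to -0.64 for Hybrid F (SD 0.16 over pairs) and from -1.0 to -0.57 for Hybrid G (SD 0.17). Over the 10129 genes the medians within a pair ran from -0.28 to 0.10 for Hybrid F and from -0.37 to 0.09 for Hybrid G. Pre-molt bodies gave the lowest median in both hybrids, for members and for the 10129 genes alike. Medians within a pair are ratios of single profiles and need not centre on the ratio of the 6-profile means. The 13 members whose C. formosanus values were all whole had medians of -0.98 and -1.18. Genes counted in C. gestroi only showed a like level against their own parent, with median log2 ratios of -0.99 in Hybrid F and -1.13 in Hybrid G over 39 genes.

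**Figure D3:**
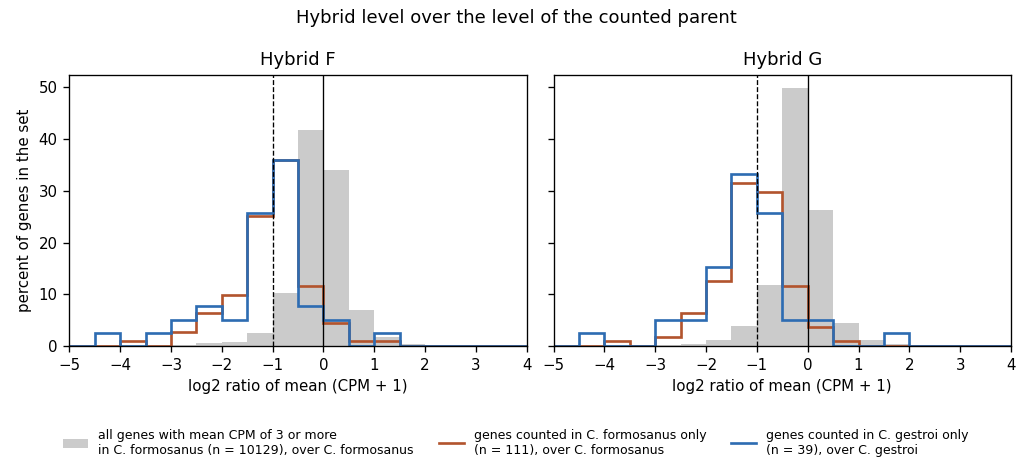
Distribution of the log2 ratio of mean (CPM + 1) of Hybrid F (left) and Hybrid G (right) to the parent that holds counts, as the percent of genes in each set (y axis) per bin of 0.5 log2 units; 1 member below -5 and the few genes of the large set outside the axis are not drawn. Members and the genes counted in C. gestroi only pile up around the dashed line at -1 with this pseudocount of 1 CPM, while the 10129 genes at or above 3 CPM in C. formosanus centre near 0.

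Counted by size, 51 members (45.9%) were at least 2-fold lower in Hybrid F than in C. formosanus, where 4.33% of the 10129 genes were. In Hybrid G this was so for 60 members (54.1%), against 5.81%. Both hybrids were at least 2-fold lower for 41 members, where 2.66% of the 10129 genes were. Both lay below C. formosanus for 102 members, against 51.3% of those genes, and above it for 3, against 27.3%. Both hybrids lay between 25% and 75% of C. formosanus for 63 members, a range that held 13.7% of the 10129 genes. Since the C. formosanus level was part of the choice, nothing is read from these shares beyond their size. The median log2 ratio of Hybrid F to Hybrid G was 0.12, with 66 members higher in Hybrid F and 45 in Hybrid G; of the 10129 genes 65.8% were higher in Hybrid F.

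**Figure D4:**
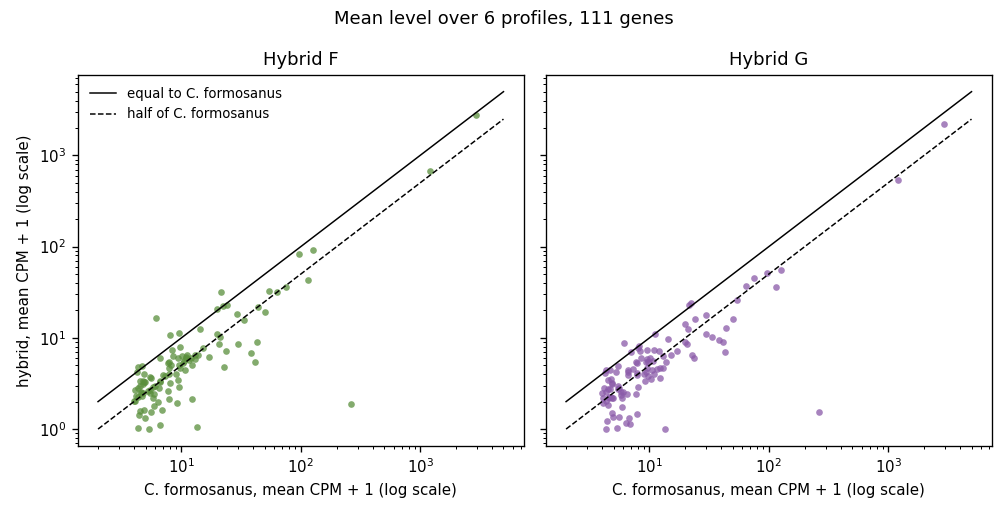
Mean level of the 111 genes in C. formosanus (x axis, CPM + 1, log scale) against Hybrid F and Hybrid G (y axis, CPM + 1, log scale), each a mean over 6 profiles; the solid line marks equal levels and the dashed line 2-fold lower. Points gather along the dashed line, with BGI_novel_G001612 far below it in both hybrids and BGI_novel_G003060 close to the solid line in Hybrid F.

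A few members were almost lost from both hybrids. Both stood under 10% of C. formosanus for 6 members, a share of 0.128% among the 10129 genes. BGI_novel_G001612, of 1016 bases, had the lowest ratio among members of at least 10 CPM. In C. formosanus it was at 310.7 CPM in pre-molt heads and 1268.8 CPM in pre-molt bodies, and no other profile was above 0.16 CPM. Its highest value was 3.03 CPM in Hybrid F and 1.22 CPM in Hybrid G. The hybrid profiles therefore lay below both pre-molt profiles of C. formosanus by a wide margin. The gene with the number before it, BGI_novel_G001611, was kept in both hybrids, as described with the stages below.

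BGI_novel_G003058, of 10581 bases, was counted at 35.8 CPM in pre-molt heads and 39.8 CPM in post-molt heads of C. formosanus. It was listed at 0 in inter-molt heads and NA in all 3 body profiles of that species. Its only hybrid count was 0.319 CPM, in Hybrid F pre-molt bodies, and Hybrid G was NA throughout. Thus its hybrid heads were NA where the C. formosanus heads were high. BGI_novel_G001487, of 11704 bases, ran from 20.4 to 69.4 CPM in C. formosanus. It reached 9.76 CPM at most in Hybrid F and 18.2 CPM in Hybrid G, so no hybrid profile overlapped C. formosanus.

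At the other end, 3 members had the highest hybrid ratios among those of at least 10 CPM. BGI_novel_G000239, of 6620 bases, had means of 20.3 ± 19.8 CPM in C. formosanus, 31.0 ± 38.04 in Hybrid F and 22.1 ± 23.96 in Hybrid G (SD, n = 6 profiles each). BGI_novel_G001234 stood at 21.3 ± 11.1 CPM in C. formosanus, 21.2 ± 23.9 in Hybrid F and 23.1 ± 21.5 in Hybrid G. BGI_novel_G002953 stood at 18.8 ± 8.07, 19.6 ± 4.04 and 13.2 ± 5.21 CPM in that order. In all 3 genes the profiles of the crosses overlapped. The spread over profiles includes the stages and tissues.

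The 11 Cfor members had median log2 ratios to C. formosanus of -1.0 in Hybrid F and -1.02 in Hybrid G, and the 100 BGI_novel members -0.97 and -1.06; no test of this difference was made. Among them Cfor_08063, with every C. formosanus value whole and NA in all C. gestroi cells, stood at 49.3% of C. formosanus in Hybrid F and 57.9% in Hybrid G. Cfor_11789 stood lower, at 19.3% and 14.3%. Cfor_03982 was almost absent from the hybrids, at 0.551% in Hybrid F and NA throughout Hybrid G; it and Cfor_11789 were singled out after their values were seen.

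Stage differences were tested within each tissue on all genes, with edgeR's quasi-likelihood test, cross as a block and a Benjamini-Hochberg adjusted p under 0.05. A filter on low counts kept 98 of the 111 members in heads and 106 in bodies, and 1 member entered no fit. The rule averaged over stages and tissues, so it did not use these differences. At least 1 stage contrast called 54 of the 108 members tested in either tissue, 37 in heads and 31 in bodies. The like count over all genes was not taken, so nothing is read from these numbers. Shares for each contrast are given below.

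In heads, 8 members were higher and 20 lower at pre-molt than at inter-molt. That is 8.16% and 20.4% of the members tested, where 24.4% and 25.8% of all genes tested were called. At post-molt against inter-molt, 7 were higher and 20 lower (7.14% and 20.4%), against 23.9% and 24.5% of all genes. At post-molt against pre-molt, 8 were higher and 3 lower, against 13.2% of all genes in each direction. The members' share of higher calls lay below that of all genes in all 3 contrasts, and their share of lower calls lay below it by less in those against inter-molt. The 11 calls between post-molt and pre-molt heads fell to 4 when the pre-molt profile of C. formosanus was dropped, to 5 or 3 when the pre-molt or post-molt profile of Hybrid F was, and to 2 when post-molt Hybrid G was.

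In bodies, 6 members were higher and 15 lower at pre-molt than at inter-molt (5.66% and 14.2% of those tested), where 14.8% and 11.7% of all genes were called. At post-molt against inter-molt, 7 were higher and 12 lower (6.6% and 11.3%), against 11.9% and 8.59% of all genes. At post-molt against pre-molt, 6 were higher and 3 lower, against 6.46% and 7.78% of all genes. Lower calls outnumbered higher ones in both contrasts with inter-molt, whereas among all genes higher calls were the more frequent. No test of that difference was made, and members chosen mainly through inter-molt bodies of C. formosanus can add to the lower calls by the choice. The 21 calls at pre-molt fell to 13 without inter-molt Hybrid F and to 13 without pre-molt Hybrid F. The 19 calls at post-molt against inter-molt fell to 9 when the post-molt profile of C. formosanus was dropped, to 9 or 5 when the inter-molt or post-molt profile of Hybrid F was, and to 12 when post-molt Hybrid G was. The 9 calls between post-molt and pre-molt bodies fell to 5 without the inter-molt profile of Hybrid F, 4 without its pre-molt profile and 1 without its post-molt profile, and to 2 when the post-molt profile of C. formosanus or of Hybrid G was dropped.

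Some members changed in heads and bodies alike. Of 96 members tested in both tissues, 4 were higher at pre-molt than at inter-molt in both, BGI_novel_G000239, BGI_novel_G000636, Cfor_00108 and Cfor_12974. They make up 50% of the 8 called in heads and 66.7% of the 6 called in bodies, where the shares were 48.6% and 78.2% over all genes tested in both tissues. A further 7 were lower in both (35% of 20 in heads, 70% of 10 in bodies, against 28.7% and 69.6% over all genes), among them BGI_novel_G000199, BGI_novel_G000908, Cfor_00386, Cfor_08063 and Cfor_11789. No member was called in opposite directions, as were 2.68% of all genes called in both tissues. The shares of members lay near those of all genes, and nothing particular to the members is read from them. The genes of these overlaps were named after their values were seen. The largest changes named below were picked among calls with the same sign in C. formosanus and both hybrids. Their shared direction therefore follows from the choice.

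BGI_novel_G001611, of 1046 bases, had the largest rise. In heads of C. formosanus it stood at 0.163 CPM at inter-molt, 3176.2 at pre-molt and 78.3 at post-molt. Hybrid F heads followed with 0.286, 2115.9 and 49.0 CPM, and Hybrid G heads with 4.06, 1435.5 and 52.5 CPM. All 3 crosses were thus lowest at inter-molt and highest at pre-molt, with no overlap between stages, and C. gestroi was NA throughout. The rise from inter-molt to pre-molt was 11.48 ± 1.47 on the log2 scale (SE; edgeR adjusted p = 0.0013), and that from inter-molt to post-molt was 6.21 ± 1.23 (edgeR adjusted p = 0.008). The fall from pre-molt to post-molt was -5.27 ± 1.10 (edgeR adjusted p = 0.017). That last call was lost without pre-molt or post-molt C. formosanus, without pre-molt or post-molt Hybrid F, or without post-molt Hybrid G (edgeR adjusted p up to 0.074).

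In bodies the same gene stood at 0, 3970.6 and 14.0 CPM over inter-molt, pre-molt and post-molt C. formosanus. Hybrid F bodies had 0.323, 1870.4 and 7.21 CPM. Hybrid G bodies had 377.1, 1325.3 and 8.41 CPM, so that its inter-molt profile stood apart from the other crosses. The difference between pre-molt and inter-molt bodies did not pass the test (8.11 ± 4.07 on the log2 scale, edgeR adjusted p = 0.21).

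**Figure D5:**
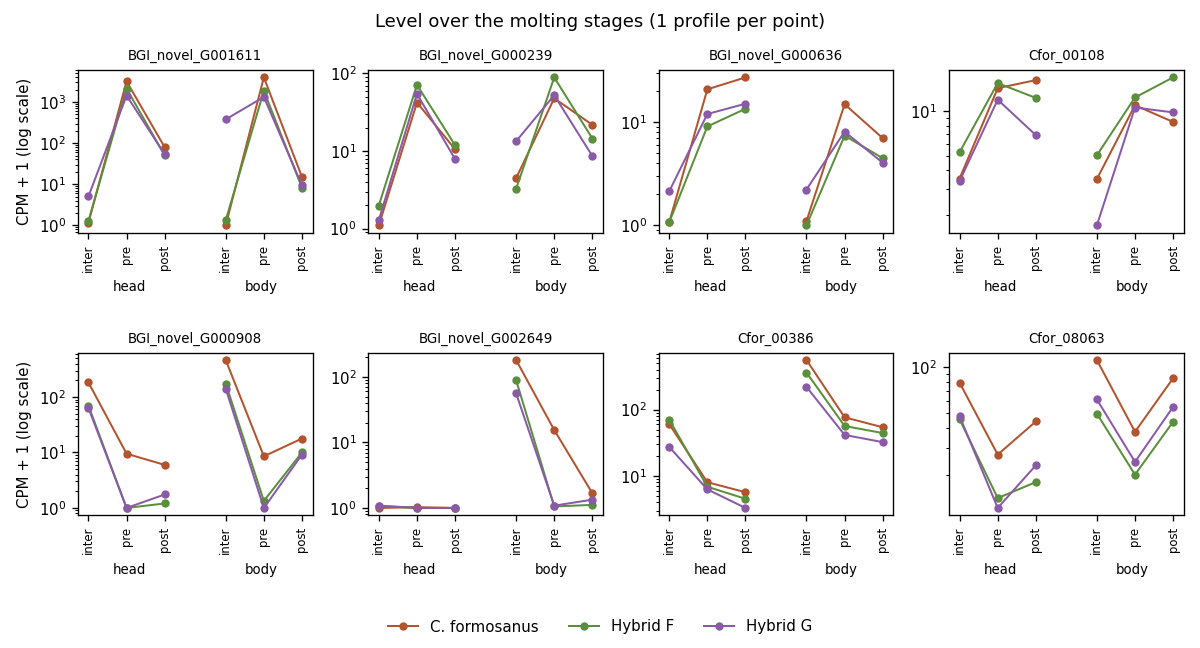
Level (y axis, CPM + 1, log scale) of 8 members at inter-molt, pre-molt and post-molt in heads and bodies (x axis) of C. formosanus, Hybrid F and Hybrid G; each point is 1 profile, with no error. The genes of the top row are mostly higher at pre-molt than at inter-molt and those of the bottom row lower. An exception is BGI_novel_G002649, near 0 in all heads. Outside those heads, the 3 crosses share the direction from inter-molt to pre-molt in these 8 genes. Their courses differ in places, as in inter-molt Hybrid G bodies for BGI_novel_G001611. Pre-molt bodies held 14.4 and 7.53 CPM of BGI_novel_G002649 and BGI_novel_G000908 in C. formosanus and at most 0.339 CPM in the hybrids. Post-molt bodies were below inter-molt ones for BGI_novel_G000239 in Hybrid G alone. Cfor_00108 heads were highest at post-molt in C. formosanus and at pre-molt in the hybrids. All 8 were picked from members called with the same sign in the 3 crosses, so their shared direction does not stand for the other members.

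Other members also rose toward the molt. BGI_novel_G000239 stood at 0.102, 41.2 and 9.53 CPM over the 3 stages in C. formosanus heads, at 0.986, 70.3 and 10.9 in Hybrid F heads and at 0.291, 53.6 and 6.87 in Hybrid G heads. Every pre-molt head was above every inter-molt head, and the rise was 7.12 ± 0.89 on the log2 scale (edgeR adjusted p = 0.00038). Bodies of the 3 crosses went from between 2.26 and 12.4 CPM at inter-molt to between 46.9 and 88.0 at pre-molt. That rise was 3.96 ± 0.94 (edgeR adjusted p = 0.028). The call in bodies was lost without inter-molt C. formosanus, without any one of the 3 Hybrid F profiles, or without pre-molt Hybrid G (edgeR adjusted p up to 0.093).

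BGI_novel_G000636, one of the 13 members with whole counts in C. formosanus, stayed high after the molt in heads. Its bodies went from 13.8 CPM at pre-molt to 5.96 at post-molt in C. formosanus, from 6.36 to 3.46 in Hybrid F and from 7.05 to 3.02 in Hybrid G. C. formosanus heads held 0.0707 CPM at inter-molt, 19.6 at pre-molt and 25.9 at post-molt. Hybrid F heads held 0.069, 8.03 and 12.4 CPM, and Hybrid G heads 1.13, 10.9 and 14.0 CPM. Both later stages were above inter-molt in each cross, and post-molt was the highest. The log2 difference of post-molt from inter-molt heads was 5.98 ± 0.79 (edgeR adjusted p = 0.00058). In bodies the gene was higher at pre-molt than at inter-molt by 5.03 ± 1.32 (edgeR adjusted p = 0.039), a call that 7 of 16 alternatives ended, each of them the loss of 1 C. formosanus or Hybrid F body profile or of pre-molt Hybrid G (adjusted p up to 0.11).

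Cfor_00108, NA in all C. gestroi profiles and whole in those of C. formosanus, rose in heads and bodies alike. Its inter-molt profiles lay between 0.695 and 4.29 CPM and its pre-molt profiles between 9.58 and 14.5 CPM over the 3 crosses. The groups did not overlap. Pre-molt exceeded inter-molt by 2.57 ± 0.30 on the log2 scale in heads (edgeR adjusted p = 0.00077) and by 2.84 ± 0.46 in bodies (edgeR adjusted p = 0.0074). Post-molt bodies exceeded inter-molt bodies by 2.49 ± 0.45 (edgeR adjusted p = 0.014), a call lost without post-molt Hybrid F (adjusted p = 0.073). BGI_novel_G003603 was also higher in post-molt than in inter-molt bodies, by 2.12 ± 0.55 (edgeR adjusted p = 0.031), with 5.81 against 2.64 CPM in Hybrid G and 7.03 against 1.09 CPM in C. formosanus. That call was lost without inter-molt or post-molt C. formosanus, without any one of the Hybrid F bodies or without post-molt Hybrid G (adjusted p up to 0.14).

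Members that fell after inter-molt formed the larger group. BGI_novel_G000908, of 4431 bases, stood at 181.4, 8.49 and 4.97 CPM over the stages in C. formosanus heads, at 68.6, 0 and 0.205 in Hybrid F heads and at 62.5, 0 and 0.75 in Hybrid G heads. Inter-molt heads were the highest in every cross. Summed over these 3 crosses, pre-molt heads held 313 counts and inter-molt heads 8558, a CPM ratio of 37.2 (95% interval 33.2 to 41.8, Clopper-Pearson, counting error only). The fitted fall was -6.40 ± 1.16 on the log2 scale (edgeR adjusted p = 0.0054), and with hybrid profiles at 0 its size depends on the prior count of the fit. Bodies fell from 463.0 to 7.53 CPM in C. formosanus, from 173.9 to 0.339 in Hybrid F and from 140.3 to 0 in Hybrid G (edgeR adjusted p = 0.0085).

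BGI_novel_G001545 was a gene of inter-molt heads. It stood at 52.5 CPM there in C. formosanus, 25.7 in Hybrid F and 18.5 in Hybrid G. No other profile of the 3 crosses exceeded 1.79 CPM. Inter-molt heads held 92.7% of its summed C. formosanus CPM, so its place in the list came mainly through that profile. Pre-molt heads were lower by -5.70 ± 0.86 on the log2 scale (edgeR adjusted p = 0.0026) and post-molt heads by -4.83 ± 0.82 (edgeR adjusted p = 0.0045).

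Cfor_00386, of 2899 bases, had the highest CPM of the Cfor members, though not per length, and fell in both tissues. C. formosanus held 59.5, 7.04 and 4.67 CPM over the stages in heads and 558.0, 75.5 and 53.1 CPM in bodies. Hybrid F held 69.8, 5.86 and 3.52 CPM in heads and 360.6, 55.5 and 43.3 CPM in bodies. Hybrid G held 26.4, 5.26 and 2.29 CPM in heads and 219.0, 40.5 and 31.3 CPM in bodies. Every cross had its highest value in inter-molt bodies and its lowest in post-molt heads. Pre-molt was lower than inter-molt by -2.49 ± 0.29 on the log2 scale in heads (edgeR adjusted p = 0.00027) and by -1.99 ± 0.38 in bodies (edgeR adjusted p = 0.007). The gene was also lower in heads than in bodies, by -3.28 ± 0.11 (edgeR adjusted p = 1.2e-09).

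Cfor_08063 was lowest at pre-molt and rose again after the molt, in heads only in part. C. formosanus heads held 77.8, 26.1 and 43.3 CPM over the stages, and its bodies 109.4, 37.0 and 83.3 CPM. Hybrid F heads held 44.7, 13.2 and 17.0 CPM, and Hybrid G heads 46.9, 11.3 and 22.1 CPM. In each the order was inter-molt, post-molt, pre-molt. The fall from inter-molt to pre-molt was -1.33 ± 0.14 in heads (edgeR adjusted p = 0.00051) and -0.92 ± 0.13 in bodies (edgeR adjusted p = 0.0048), both on the log2 scale. The rise from pre-molt to post-molt was 0.68 ± 0.14 in heads (edgeR adjusted p = 0.015) and 0.88 ± 0.13 in bodies (edgeR adjusted p = 0.012). The former call was lost without pre-molt or post-molt C. formosanus or Hybrid G (adjusted p up to 0.063) and the latter without post-molt Hybrid F (adjusted p = 0.053). Post-molt heads were still below inter-molt heads, by -0.65 ± 0.14 (edgeR adjusted p = 0.0096). BGI_novel_G000199 stayed low in heads, at 69.8, 9.26 and 10.6 CPM over the stages in C. formosanus. Its fall to pre-molt was -2.53 ± 0.14 (edgeR adjusted p = 3.9e-05), and post-molt heads were lower than inter-molt heads by -2.28 ± 0.14 (edgeR adjusted p = 7.6e-05).

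Cfor_11568 and Cfor_12974 fell between pre-molt and post-molt bodies, and had the largest falls among the members that passed this test with the same sign in all 3 crosses. Cfor_11568 went from 200.8 to 43.7 CPM in C. formosanus, from 130.0 to 35.5 in Hybrid F and from 51.8 to 42.2 in Hybrid G (-1.78 ± 0.40 on the log2 scale, edgeR adjusted p = 0.038). Cfor_12974 went from 80.5 to 46.9, from 59.2 to 19.6 and from 32.0 to 12.8 CPM in that order (-1.57 ± 0.28, edgeR adjusted p = 0.02). BGI_novel_G000201 rose in these bodies, from 6.84 to 28.1, from 0.912 to 6.80 and from 4.36 to 19.1 CPM (1.99 ± 0.44, edgeR adjusted p = 0.037), as did BGI_novel_G000921 (4.66 ± 1.10, edgeR adjusted p = 0.045). The post-molt level of BGI_novel_G000201 was still below that of inter-molt bodies, at 145.0 CPM in C. formosanus, 23.7 in Hybrid F and 24.7 in Hybrid G. All 4 calls were lost without pre-molt or post-molt Hybrid F or without post-molt Hybrid G (adjusted p up to 0.14), and all but that of Cfor_12974 also without pre-molt or post-molt C. formosanus or inter-molt Hybrid F. Cfor_11568 was lost also without inter-molt Hybrid G, Cfor_12974 also without pre-molt Hybrid G, and BGI_novel_G000921 also without inter-molt C. formosanus, without pre-molt or post-molt C. gestroi, or without that species as a whole.

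Between pre-molt and post-molt heads, BGI_novel_G000703 rose from 1.96 to 8.47 CPM in C. formosanus, from 0.327 to 4.87 in Hybrid F and from 0 to 5.64 in Hybrid G (3.65 ± 0.95 on the log2 scale, edgeR adjusted p = 0.037). BGI_novel_G000919 was called too (3.74 ± 0.91, edgeR adjusted p = 0.028), at levels under 0.45 CPM in both stages, with 32 counts at post-molt and 2 at pre-molt over the 3 crosses, a CPM ratio of 17.4 (95% interval 4.43 to 149.4, Clopper-Pearson). BGI_novel_G000239 fell, by -2.52 ± 0.65 (edgeR adjusted p = 0.023). Each of these calls was lost in 6 of 16 alternatives, with adjusted p up to 0.12, 0.087 and 0.25 in that order, among them the loss of post-molt Hybrid F, of post-molt Hybrid G and, for BGI_novel_G000239, DESeq2. The rest were the loss of Hybrid F or Hybrid G pre-molt or inter-molt heads or of C. formosanus pre-molt or post-molt heads.

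Inter-molt bodies held the highest levels of one group of members. In 23 members a single C. formosanus profile held over 50% of the gene's summed CPM, where 9.57% of the 10129 genes did so. That profile was the inter-molt body in 14 of the 23 (60.9%), against 42.7% of the 969 genes so concentrated. Inter-molt bodies of C. formosanus have 1 column where other groups of that species have 3, and the number of members was 96 without this profile. Of these 14 genes, 12 (85.7%) also had their highest profile in inter-molt bodies of both hybrids, against 61.1% of the 414 such genes among the 969; no test of these differences was made. Their summed level in inter-molt bodies was 1648.3 CPM in C. formosanus, 783.5 in Hybrid F and 538.1 in Hybrid G. Inter-molt heads held 297.9, 156.8 and 99.96 CPM, pre-molt bodies 145.9, 71.3 and 60.5 CPM, and post-molt bodies 111.4, 122.6 and 83.4 CPM. The C. formosanus peak follows from how the 14 genes were picked, and Cfor_00386 and BGI_novel_G000908 make up 558.0 and 463.0 CPM of it.

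A few of the 14 had few counts elsewhere. Their C. formosanus level in the rule came mainly from inter-molt bodies, so the C. formosanus part of their tests is not free of the choice. BGI_novel_G002649 stood at 180.1 CPM in inter-molt bodies of C. formosanus, 88.5 in Hybrid F and 55.3 in Hybrid G. Pre-molt bodies held 14.4, 0.0532 and 0.0842 CPM in the same order, and heads were below 0.1 CPM or NA. Pre-molt bodies were lower by -6.04 ± 1.43 on the log2 scale (edgeR adjusted p = 0.028). The call was lost without inter-molt, pre-molt or post-molt Hybrid F or without inter-molt or pre-molt Hybrid G (adjusted p up to 0.081).

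BGI_novel_G002921 and BGI_novel_G002922 have consecutive numbers and a like course. In inter-molt bodies the former stood at 61.8, 32.6 and 20.4 CPM in C. formosanus, Hybrid F and Hybrid G, and the latter at 50.7, 25.8 and 15.3 CPM. At post-molt BGI_novel_G002922 held 2 counts in all over these 3 crosses, against 1713 at inter-molt. The CPM ratio was 1302 (95% interval 359.9 to 10759.9, Clopper-Pearson, counting error only; edgeR adjusted p = 0.013). Without post-molt C. formosanus or post-molt Hybrid F this call was lost (adjusted p up to 0.069).

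BGI_novel_G003656, BGI_novel_G003657 and BGI_novel_G003660 lie close in number and shared the pattern. Inter-molt bodies held 25.9, 57.1 and 18.6 CPM of the 3 genes in C. formosanus, 3.08, 27.8 and 13.6 CPM in Hybrid F and 2.03, 20.7 and 7.21 CPM in Hybrid G. Post-molt bodies held at most 0.395 CPM of any of them. BGI_novel_G003656 and BGI_novel_G003657 were lower at post-molt (edgeR adjusted p = 0.0026 and 0.0037). BGI_novel_G003660 held 2 counts at post-molt against 798 at inter-molt over the 3 crosses (edgeR adjusted p = 0.015), a call lost without inter-molt or post-molt profiles of either hybrid or without post-molt C. formosanus (adjusted p up to 0.076). The neighbours BGI_novel_G002921, BGI_novel_G003656 and BGI_novel_G003657 were named after their values were seen.

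The hybrids' course over the stages was set against that of C. formosanus. The profile with the highest level was the same in C. formosanus and both hybrids for 43 members (38.7%), where this was so for 52.6% of the 10129 genes. For the 23 members concentrated in 1 C. formosanus profile it was 16 (69.6%), against 68% of the genes so concentrated. Across the 111 members the correlation of the log2 change in C. formosanus with that in a hybrid ran from r = 0.45 to 0.81 over the 12 combinations of tissue, contrast and hybrid, against 0.60 to 0.92 over the 10129 genes; genes are not independent and both values share the pseudocount of 1 CPM.

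The difference in stage response between C. formosanus and both hybrids was tested over 18 profiles, with heads and bodies standing in for replicates. They are different tissues, so here p measures how a difference recurred over tissues and hybrids. No member of 107 tested passed in edgeR, where 0.51% of all genes did. At an unadjusted edgeR p under 0.05 there were 15 of the 107 members, and 2151 of all 13133 genes tested. DESeq2 called 7 members, with no share over all genes set beside them. Nothing particular to the members is read from either count. Leaving out 1 profile gave 1 call without inter-molt Hybrid G bodies and 2 without inter-molt Hybrid F bodies. The smallest edgeR adjusted p was 0.056, for BGI_novel_G002649, then 0.12 for BGI_novel_G000908 and 0.13 for BGI_novel_G003213. In pre-molt bodies BGI_novel_G002649 and BGI_novel_G000908 held 14.4 and 7.53 CPM in C. formosanus and at most 0.339 CPM in the hybrids.

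Between tissues, 9 of the 93 members tested were higher in heads and 22 lower (9.68% and 23.7%), where 24.9% and 21.5% of all genes tested were called. All 31 had the same sign in C. formosanus and both hybrids. BGI_novel_G000538 was a head gene, at 4.26 to 7.10 CPM in heads of C. formosanus and 0.609 to 1.34 CPM in its bodies. Hybrid F heads ran from 1.39 to 6.78 CPM and its bodies reached 1.22 CPM, while Hybrid G bodies were all NA. Heads were higher by 4.03 ± 0.72 on the log2 scale (edgeR adjusted p = 0.0011).

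Cfor_11789 was higher in heads at each stage in C. formosanus, with 190.7, 11.1 and 2.10 CPM against 43.9, 1.37 and 0.242 CPM in bodies. In inter-molt heads it stood at 42.3 CPM in Hybrid F and 26.5 in Hybrid G. Its heads exceeded its bodies by 2.36 ± 0.39 (edgeR adjusted p = 0.00064). The stages of this gene spanned a wider range than the tissues did, and inter-molt was the highest stage in each cross and tissue.

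BGI_novel_G003068, whole in its C. formosanus counts, was a body gene. Bodies of C. formosanus held 9.42, 134.3 and 24.5 CPM over the stages and heads between 1.09 and 2.25 CPM. Hybrid F bodies held 6.40, 17.4 and 19.7 CPM and Hybrid G bodies 10.1, 23.3 and 24.8 CPM, with all hybrid heads under 1 CPM. No head overlapped a body, and heads were lower by -4.48 ± 0.33 on the log2 scale (edgeR adjusted p = 4.5e-07). The C. formosanus peak at pre-molt had no counterpart of that height in the hybrids, whose highest bodies were post-molt. BGI_novel_G000919 was likewise lower in heads, by -3.75 ± 0.47 (edgeR adjusted p = 0.00011), with 18.3, 1.43 and 5.73 CPM in C. formosanus bodies and at most 0.835 CPM in its heads.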

How the data were processed

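Per the labels' protocols, total RNA from a Trizol and silica membrane extraction went into mRNA libraries. The authors deposited 1 table of expected counts, which are estimates that can have decimals, with each gene's length in bases. Bowtie2, RSEM and DESeq2 were used, per the submitters' processing notes; of their versions, their roles, the genome build and the annotation, none is given in the sources used here. Of the profile values, 27.7% were not whole. The table's 67 columns all have a sample (0 without) and are identical within each of the 24 groups, with 16 columns for C. formosanus, 15 for C. gestroi and 18 for each hybrid, so each group was used as 1 profile. NA was read as 0.

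CPM used the column sum. Members and lists were chosen with earlier results of these data known. Counts were rounded, filtered with filterByExpr, scaled by TMM and tested in edgeR 4.0.16 (glmQLFit with robust settings, glmQLFTest; R 4.3.3), on all genes of a tissue, with 6 residual degrees of freedom. These degrees of freedom are those of the stage fits and count the C. gestroi profiles, where members have next to no counts. A member's p therefore rests mainly on the other 3 crosses, which are C. formosanus and its 2 hybrids. The SE is the absolute log2 fold change over the square root of F. Head against body used cross and stage pairs as blocks. Named genes were the 6 highest in C. formosanus, the 3 highest and lowest in hybrid ratio, and the 2 largest changes per contrast and direction. The smallest interaction p and the neighbours of each threshold were named too, and others are named as such. The largest changes were picked among members called with the same sign in C. formosanus and both hybrids. Alternatives were DESeq2 1.42.0, RLE scaling, no filter, no C. gestroi, other thresholds and pseudocounts, and each profile left out. The fits were checked on simulated data. With no names for the identifiers, marker lists could not be used, and no sequence is printed. Intervals and floors cover counting error only.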

Additional observations from a re-analysis of the deposited data

Results flagged for a closer look

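The number of members with a count was lower in pre-molt heads of Hybrid G, at 93 of 111, than in the other 5 Hybrid G profiles, where it ran from 98 to 100. What set this profile apart is the gap to the nearest of the others, which was large for the range of the 6. Chance flags about 1 group in 20 of like samples by this measure, and these 6 profiles differ in tissue and stage. Pre-molt was also the lowest stage in Hybrid F, at 97 members in heads and 94 in bodies, but not in Hybrid G bodies, at 100.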

How the results depend on the processing

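No paired analysis was possible because the columns of a group hold identical values, so the replicate numbers of the labels carry no separate values to pair; the blocks used were cross, and cross with stage. DESeq2 called more members in bodies, 32 at pre-molt against inter-molt (21 in edgeR) and 17 at post-molt against pre-molt (9), and 7 for the stage response of C. formosanus against the hybrids (0). No share over all genes is set beside these DESeq2 counts, so nothing particular to the members is read from them. RLE scaling, no filter and leaving out C. gestroi moved no count by over 1.5 times. Leaving out 1 profile gave 22 to 35 calls at pre-molt and 20 to 29 at post-molt against inter-molt heads, 2 to 15 at post-molt against pre-molt heads, 13 to 22, 5 to 20 and 1 to 10 in the same order of contrasts in bodies, 23 to 32 between tissues and 0 to 2 for the stage response. Of 146 member and contrast calls, 72 held in every alternative and 0 changed sign. The number of members was 226 with a minimum of 1 CPM in C. formosanus, 38 with 10 CPM, 71 with no C. gestroi count, 168 with up to 18 such counts, and 96 to 127 with 1 profile left out. The median log2 ratio to C. formosanus was -1.15 in Hybrid F and -1.28 in Hybrid G with a pseudocount of 0.1 CPM, -0.57 and -0.61 with 5 CPM, -0.79 and -0.85 in head profiles only, and -0.66 and -0.68 in heads for genes chosen on bodies. Leaving out 1 tissue and stage gave -1.01 to -0.94 in Hybrid F and -1.10 to -0.93 in Hybrid G. The choice on 1 tissue with the ratio in the other, the members with whole counts and those with no NA were added after the data were seen; members with no NA gave -0.94 and -0.93. The causes of these differences were not tested. Low depth limits members of few counts, whose floor of 3 counts lies at up to 0.304 CPM.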
